A study of Mus musculus with 18 samples.

Results

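The T cell receptor complex and its coreceptors were followed as 10 genes of the 20878 measured in 18 mouse tumors. They were taken by name, and all 10 were present in the expression matrix: the CD3 chains Cd3d, Cd3e and Cd3g, the zeta chain Cd247, the coreceptors Cd4, Cd8a and Cd8b1, the kinases Lck and Zap70, and the receptor-associated regulator Cd5. The tumors grew from K7M2, a poorly differentiated mouse osteosarcoma line of Balb/c origin, grafted either with an shRNA that lowers ATRX, a chromatin remodeler (ATRX-KD), or with a control shRNA (ATRX-CT). The hosts were described as female mice of 6 to 8 weeks. They were either Balb/c, which are immunocompetent and share the origin of the line, or NSG. NSG is the NOD strain with the scid allele of Prkdc and the null allele Il2rg tm1Wjl. These mice cannot join receptor gene segments and lack the common cytokine receptor gamma chain, and therefore lack T, B and NK cells. There were 4 groups: 4 ATRX-CT and 4 ATRX-KD tumors from Balb/c mice, and 5 ATRX-CT and 5 ATRX-KD tumors from NSG mice. Each tumor came from a different, numbered mouse. All grafted cells therefore carried an shRNA, and all were 1 line. Whole cages were assigned to 1 kind of cells and the labels give no cage, so cage and knock-down cannot be told apart. The comparison between grafts asks whether ATRX loss changes the immune response to the tumor, and the comparison between hosts asks what the lymphocytes of the host bring to it. The hosts also differ in strain, and only Balb/c mice share the origin of the line. Strain and the lack of lymphocytes therefore cannot be told apart in the host comparison.

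The T cell receptor recognises peptides held by MHC molecules, but its antigen-binding chains have almost no cytoplasmic part and rely on the CD3 chains and the zeta chain to signal. CD4 binds MHC class II and marks helper and regulatory T cells, whereas CD8, a pair of an alpha and a beta chain, binds MHC class I and marks cytotoxic T cells. Both bring the kinase Lck to the receptor, Lck phosphorylates the CD3 and zeta chains, and Zap70 docks on the phosphorylated chains and passes the signal on. Some members are not particular to T cells: Cd247, Lck and Zap70 are also used by NK cells, and in mice Cd4 is also present on some dendritic cells. The antigen-binding chains themselves, whose genes are rearranged, were not analysed here.

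In the mm10 annotation deposited by the authors, Cd3g (chr9:44969572-44980431, minus strand), Cd3d (chr9:44981786-44987052, plus strand) and Cd3e (chr9:44998743-45009590, minus strand) lie next to each other. Cd3g and Cd3d start back to back, 1354 bases apart, and Cd3d and Cd3e end 11690 bases apart. Cd8b1 (chr6:71322812-71337451) and Cd8a (chr6:71373427-71379171), both on the plus strand, are 35975 bases apart. The other members stand alone: Cd247 (chr1:165788681-165871153, plus), Zap70 (chr1:36761798-36782820, plus), Lck (chr4:129548344-129573641, minus), Cd4 (chr6:124864693-124888209, minus) and Cd5 (chr19:10718143-10738974, minus). RefSeq windows of the 250 bases before a start site (GRCm38.p6, the same build) were at hand for 8 of the 10 members, and not for Cd4 and Cd8b1. The windows of the 3 neighbouring CD3 genes are printed 5′ to 3′ on the strand of the gene, because these genes encode 1 complex, sit at 1 locus and moved together between hosts. They span chr9:44980432-44980681 for Cd3g, chr9:44981536-44981785 for Cd3d and chr9:45009612-45009861 for Cd3e, whose RefSeq start lies 21 bases from the deposited one. Capitals mark the core of ETS factors (GGAA, or TTCC on the other strand) and of GATA factors (AGATAA, or TTATCT), families with known roles in T cells.
Cd3g: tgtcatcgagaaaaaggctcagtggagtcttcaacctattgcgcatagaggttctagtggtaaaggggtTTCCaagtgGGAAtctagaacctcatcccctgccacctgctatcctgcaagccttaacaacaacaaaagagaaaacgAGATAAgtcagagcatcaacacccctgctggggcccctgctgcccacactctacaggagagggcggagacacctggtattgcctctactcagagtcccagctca
Cd3d: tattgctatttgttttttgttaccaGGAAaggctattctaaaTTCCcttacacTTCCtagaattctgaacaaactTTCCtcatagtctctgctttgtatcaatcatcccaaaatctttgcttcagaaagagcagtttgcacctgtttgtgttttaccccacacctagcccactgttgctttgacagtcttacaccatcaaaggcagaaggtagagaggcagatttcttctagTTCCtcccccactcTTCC
Cd3e: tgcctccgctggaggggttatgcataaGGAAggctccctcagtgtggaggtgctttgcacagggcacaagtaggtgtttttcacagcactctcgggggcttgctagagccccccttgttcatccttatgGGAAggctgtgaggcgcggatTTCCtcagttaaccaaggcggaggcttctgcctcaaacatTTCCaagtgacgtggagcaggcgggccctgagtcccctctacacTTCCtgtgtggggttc
The ETS core occurred 2 times in the Cd3g window, 6 times in that of Cd3d and 5 times in that of Cd3e, and 93.4% of 32851 RefSeq promoter windows of this length hold it. The GATA core occurred 1 time, in the Cd3g window, apart from the ETS matches, and 9.99% of all windows hold it. The core of RUNX factors (TGTGGT, or ACCACA), held by 14.0% of windows, was not in these 3 windows and occurred 1 time before the upstream start of Lck and 1 time before 1 of the 3 starts of Zap70. These matches describe letters and are not evidence of binding.

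Levels are given as FPKM, read fragments scaled by transcript length and library size. A trend with transcript length that differed between tumors remained, so genes of different length can be compared only roughly. Depth was estimated at 15250000 to 25250000 fragments per tumor, and a level worth 3 fragments was used as the floor of detection. Atrx ranged from 10.3 to 26.0 FPKM in Balb/c ATRX-CT tumors and from 7.88 to 21.5 with ATRX-KD grafts. Among NSG hosts it ranged from 11.6 to 24.4 and from 8.42 to 16.4. The groups overlapped in both hosts, and Atrx did not pass the test in either, so it does not check the labels. Its log2 difference was -0.34 in Balb/c and -0.74 in NSG hosts. The latter was at an unadjusted p under 0.05 in limma, as were 26.3% of all genes. The paper reports the loss of ATRX protein in the K7M2 knock-down cells by western blot. Beside the shRNA and the host, 2 other features set tumors apart. The summed level of 10 keratinocyte genes was 91.5 FPKM in 1 ATRX-CT tumor of Balb/c hosts (mouse 45) and 15.8 in 1 ATRX-KD tumor (mouse 60), with 2.14 to 2.97 in the remaining 6. In NSG hosts it was 14.7, 11.4 and 19.0 FPKM in the ATRX-KD tumors of mice 26, 27 and 29, and 1.83 to 6.73 in the other 7. The 4 Y-linked genes summed to 13.1 to 34.3 FPKM in the NSG tumors and to at most 0.0115 in the Balb/c tumors, although the line and all hosts are described as female. This difference goes with the host and cannot be told apart from strain and the lack of lymphocytes. Its part in the host comparisons was not tested.

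In Balb/c tumors all 10 genes were detected in every tumor, and in NSG tumors 9 of them were at or near 0. The difference between hosts held for the CD3 and zeta chains, both CD8 chains, Lck, Zap70 and Cd5. Cd4 was the exception, present in every NSG tumor at levels that overlapped those of Balb/c tumors. With limma, 8 of the 10 were called higher in Balb/c than in NSG hosts among ATRX-CT tumors (a fold change of 2 or more and an adjusted p under 0.05), where 0.883% of 14828 genes were. Among ATRX-KD tumors 9 were called higher, where 1.12% of 14669 genes were. The values of 9 members did not overlap between hosts in either kind of graft, as for 7.57% and 8.13% of all genes. The median difference of the 10 members was 1.96 and 2.07 on the log2 (FPKM + 1) scale, and that of all genes was 0.0084 and -0.016. In both comparisons 8 of the members were above the filter of a mean of 0.1 FPKM only through the Balb/c tumors, so these counts describe the size of the difference and are no independent evidence for it. Without the 4 ATRX-KD tumors with raised keratinocyte genes (mice 60, 26, 27 and 29), which left 3 Balb/c and 2 NSG tumors, 6 members were called. Cd3e (2.44, adjusted p = 0.0795), Cd8a (1.87, adjusted p = 0.104) and Cd5 (1.09, adjusted p = 0.151) then no longer passed in limma. NSG mice lack T cells by genotype, as stated above. Levels in whole tumors cannot by themselves tell fewer T cells from less RNA per T cell.

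**Figure D1:**
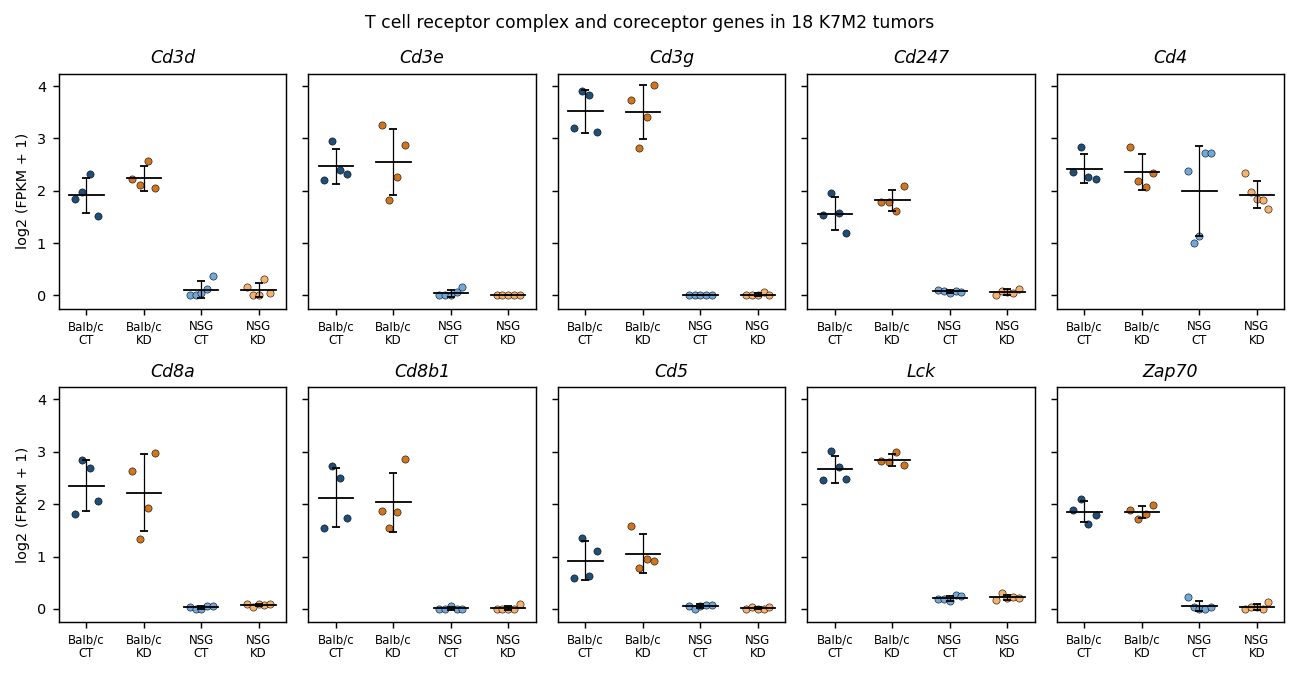
Level of each T cell receptor and coreceptor gene in the 18 tumors. The y axis is log2 (FPKM + 1), each point is a tumor, and the horizontal line and bar are the mean and SD of a group of 4 (Balb/c) or 5 (NSG) tumors. In 9 panels the NSG tumors lie near 0, below all Balb/c tumors, and in the Cd4 panel the hosts overlap.

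Of the CD3 chains, Cd3g was the most abundant. Its level was 8.14, 14.1, 13.2 and 7.69 FPKM in the Balb/c ATRX-CT tumors of mice 41, 43, 44 and 45, and 12.4, 6.05, 9.64 and 15.3 in the ATRX-KD tumors of mice 56, 58, 59 and 60. It was 0 in 9 of the 10 NSG tumors and 0.0482 in that of mouse 29, worth about 1 fragment. The hosts were thus far apart: Cd3g was at least 56.7-fold higher in Balb/c ATRX-CT tumors and at least 69.3-fold higher in ATRX-KD tumors, taking the floor of 3 fragments in each NSG library. On the log2 scale the differences were 3.51 (SE 0.17, adjusted p = 9.29e-07) and 3.48 (SE 0.20, adjusted p = 3.87e-06).

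Cd3e, to which both other CD3 chains bind, was at 3.61, 6.70, 4.25 and 3.97 FPKM in the Balb/c ATRX-CT tumors and at 8.53, 2.54, 3.78 and 6.33 in the ATRX-KD tumors. In NSG mice it was 0 in 8 tumors, among them all 5 ATRX-KD tumors, and 0.0531 and 0.112 in the ATRX-CT tumors of mice 4 and 5. All 10 NSG values were at or under the floor, which makes Cd3e at least 36.0-fold and at least 50.1-fold higher in Balb/c hosts (log2 difference 2.42, SE 0.14, adjusted p = 4.09e-06, and 2.55, SE 0.24, adjusted p = 0.000154).

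Cd3d was at 2.58, 2.95, 4.02 and 1.87 FPKM in the Balb/c ATRX-CT tumors and at 3.66, 3.29, 4.92 and 3.14 in the ATRX-KD tumors. Among NSG tumors, 4 were at 0 and 8 at or under the floor, and the highest values were 0.299 FPKM in mouse 5 and 0.243 in mouse 29, each a few fragments. The Cd3d difference between hosts was 1.81 (SE 0.15, adjusted p = 5.71e-05) among ATRX-CT tumors and 2.13 (SE 0.12, adjusted p = 3.61e-06) among ATRX-KD tumors.

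Cd247, the zeta chain, was at 1.88, 2.88, 1.98 and 1.27 FPKM in the Balb/c ATRX-CT tumors and at 2.44, 2.46, 2.04 and 3.25 in the ATRX-KD tumors, and at 0 to 0.0904 in the NSG tumors. It differed between hosts by 1.49 (SE 0.13, adjusted p = 7.67e-05) and 1.75 (SE 0.10, adjusted p = 3.61e-06). The gene overlaps Pou2f1 on the opposite strand, and 53.5% of the stretches of 75 bases in its exons are shared with Pou2f1 or Gm16565. Pou2f1 itself stood at 2.70 to 7.71 FPKM (median 5.45) in the Balb/c tumors. It stood at 2.71 to 6.28 FPKM (median 3.81) in the NSG tumors, where Cd247 did not exceed 0.0904. The part of Pou2f1 reads in the Cd247 levels was not tested.

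The CD8 coreceptor followed the CD3 chains. Cd8a, the alpha chain, was at 2.53, 6.16, 5.44 and 3.16 FPKM in the Balb/c ATRX-CT tumors and at 5.23, 1.52, 2.78 and 6.87 in the ATRX-KD tumors, against at most 0.0406 in the NSG ATRX-CT tumors and 0.0317 to 0.0679 in the NSG ATRX-KD tumors. Its Balb/c mean was at least 78.2-fold higher among ATRX-CT tumors and 73.9-fold higher among ATRX-KD tumors (log2 difference 2.32, SE 0.19, adjusted p = 4.35e-05, and 2.14, SE 0.28, adjusted p = 0.00143). Cd8b1, the beta chain, which is largely limited to T cells, was at 1.93, 5.60, 4.66 and 2.33 FPKM in the Balb/c ATRX-CT tumors and at 2.64, 1.93, 2.62 and 6.26 in the ATRX-KD tumors. It was 0 in 8 NSG tumors and under the floor in all 10, with differences between hosts of 2.12 (SE 0.22, adjusted p = 0.000217) and 2.01 (SE 0.22, adjusted p = 0.000418).

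Lck is the kinase that starts receptor signaling. Its levels were 4.50, 7.09, 5.56 and 4.56 FPKM in the Balb/c ATRX-CT tumors and 6.04, 5.96, 6.99 and 5.70 in the ATRX-KD tumors. It was above the floor in all 10 NSG tumors, at 0.106 to 0.231 FPKM, the only member beside Cd4 of which this was true. The Balb/c mean was 35.6-fold and 36.9-fold higher (log2 difference 2.46, SE 0.12, adjusted p = 1.09e-06, and 2.62, SE 0.089, adjusted p = 1.60e-07).

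Zap70 was at 2.70, 3.30, 2.09 and 2.47 FPKM in the Balb/c ATRX-CT tumors and at 2.69, 2.28, 2.53 and 2.98 in the ATRX-KD tumors. In NSG tumors it was at or under the floor in 8, with 0.167 FPKM in mouse 1 and 0.0957 in mouse 30. It differed between hosts by 1.79 (SE 0.11, adjusted p = 4.34e-06) and 1.81 (SE 0.082, adjusted p = 6.60e-07).

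Cd5, a surface regulator that dampens receptor signaling, was the least abundant member. It was at 0.509, 1.55, 0.536 and 1.15 FPKM in the Balb/c ATRX-CT tumors and at 2.01, 0.720, 0.928 and 0.875 in the ATRX-KD tumors, and was at or under the floor in all 10 NSG tumors. Among ATRX-CT tumors the Cd5 difference between hosts was 0.86 (SE 0.15, adjusted p = 0.00861), past the p threshold and under a fold change of 2 on this scale, which understates changes of low genes. Among ATRX-KD tumors it was 1.05 (SE 0.14, adjusted p = 0.00229), and it fell to 0.87, under the fold threshold, without the tumor of mouse 56. On FPKM, Cd5 was at least 10.9-fold and at least 16.1-fold higher in Balb/c hosts.

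NK cell genes moved with the same host comparison. Of 10 NK genes, 8 were called higher and 2 lower in Balb/c hosts among ATRX-CT tumors, and 7 higher and 2 lower among ATRX-KD tumors. Of all genes 0.883% and 1.12% were called higher, and 0.546% and 0.266% lower. Only 4 of the 10 NK genes passed the filter within NSG tumors, so these counts are a description too. The NK genes summed to 44.2 to 262 FPKM in Balb/c tumors and to 8.36 to 43.8 in NSG tumors. Ncr1, the defining NK receptor NKp46, was 0 in 8 NSG tumors and at most 0.0344 in the other 2. The 2 genes called lower, Klra8 and Klra9, are receptors of the Ly49 family, whose gene content differs between mouse strains, and Klra8 was at 5.03 to 25.8 FPKM in NSG tumors and at most 0.108 in Balb/c tumors. Of the 10 B cell genes 6 were tested and 0 were called by limma in either kind of graft, with 3 and 2 at an unadjusted p under 0.05, where 19.3% and 16.4% of all genes were. How much of the Cd247, Lck and Zap70 signal came from NK cells was not tested.

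Cd4 behaved unlike the other members. Its level was 4.12, 6.15, 3.82 and 3.68 FPKM in the Balb/c ATRX-CT tumors of mice 41, 43, 44 and 45, and 6.15, 3.56, 3.20 and 4.03 in the ATRX-KD tumors of mice 56, 58, 59 and 60. In NSG mice it was 4.20, 1.00, 1.19, 5.58 and 5.62 in the ATRX-CT tumors of mice 1 to 5, and 4.07, 2.92, 2.61, 2.56 and 2.13 in the ATRX-KD tumors of mice 26 to 30. The tumors of mice 2 and 3 were low and those of mice 1, 4 and 5 lay within the range of Balb/c tumors. The Balb/c mean of Cd4 was 1.26-fold that of NSG mice among ATRX-CT tumors (log2 difference 0.43, SE 0.38, adjusted p = 0.522) and 1.48-fold among ATRX-KD tumors (0.43, SE 0.19, adjusted p = 0.281). In each NSG tumor Cd4 was the highest of the 10 members, and the next, Lck, reached a mean of 0.153 FPKM in ATRX-CT and 0.167 in ATRX-KD tumors. In Balb/c tumors Cd4 ranked 4 of 10 by its mean in both groups.

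Genes of myeloid cells were present in both hosts. The 10 dendritic cell genes summed to 40.0 to 105 FPKM in Balb/c tumors and to 30.6 to 83.0 in NSG tumors, and the 10 macrophage genes to 1944 to 3862 and 1832 to 3910. Of the dendritic cell genes, 0 were called by limma between hosts among ATRX-CT tumors, with 2 at an unadjusted p under 0.05. Among ATRX-KD tumors 1, Clec10a, was called, with 6 at an unadjusted p under 0.05. Of the macrophage genes 0 were called in either kind of graft (3 and 2 at an unadjusted p under 0.05). Of all genes, 19.3% among ATRX-CT and 16.4% among ATRX-KD tumors were at an unadjusted p under 0.05. The cells that hold the Cd4 RNA of NSG tumors were not tested.

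**Figure D2:**
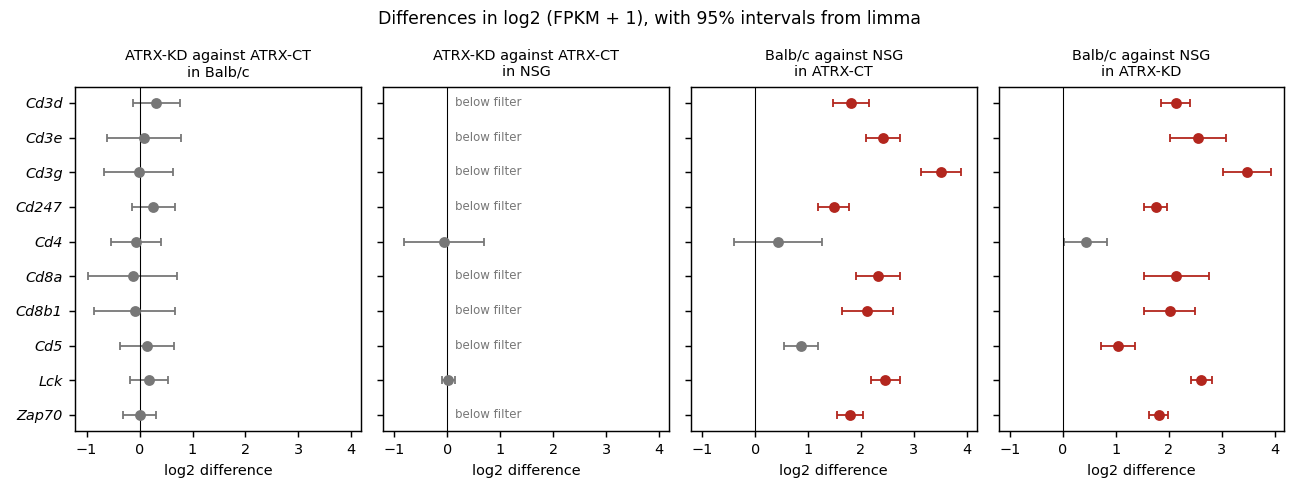
Differences of the 10 genes in the 4 comparisons, in log2 (FPKM + 1), with 95% intervals from limma. Red marks called genes, and "below filter" marks genes too low to be tested in NSG tumors. Every interval of ATRX-KD against ATRX-CT includes 0, and those of Balb/c against NSG lie above 0 for all members but Cd4 among ATRX-CT tumors.

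Between ATRX-KD and ATRX-CT tumors grown in Balb/c mice, no member passed the test. The differences ran from -0.13 for Cd8a (SE 0.37) to 0.32 for Cd3d (SE 0.20), 5 were above 0, as were 49.2% of all genes, and the groups overlapped for all 10. With limma 0 of the 10 were called (adjusted p = 0.999 or higher), where 0.00680% of 14701 genes were, and 0 were at an unadjusted p under 0.05, where 4.14% were. For 3.18% of all genes the groups did not overlap. The median difference was 0.044 for the members and -0.0032 for all genes.

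The intervals show what sizes these data leave possible. That of Cd3d ran from -0.12 to 0.76 and that of Cd247 from -0.15 to 0.66, so a higher level in ATRX-KD tumors of up to about these values lies within them. The Cd8a interval, -0.97 to 0.70, and that of Cd8b1, -0.86 to 0.68, were the widest. Those of Zap70, -0.31 to 0.31, and Lck, -0.19 to 0.53, were the narrowest. In FPKM, Cd3g averaged 10.8 ± 3.33 (SD, n = 4) in ATRX-CT and 10.8 ± 3.93 (SD, n = 4) in ATRX-KD tumors, Cd4 averaged 4.44 ± 1.15 and 4.24 ± 1.32, and Cd8a averaged 4.32 ± 1.75 and 4.10 ± 2.41. Without the tumors of mice 45 and 60, which held keratinocyte RNA, 0 members were called as well.

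In NSG mice only Cd4 and Lck were high enough to be tested between ATRX-KD and ATRX-CT tumors, and neither was called, where 0.464% of 14654 genes were. Cd4 differed by -0.063 (SE 0.34, adjusted p = 0.932) and Lck by 0.019 (SE 0.055, adjusted p = 0.865), and 0 were at an unadjusted p under 0.05. The other 8 were compared one by one with a two-sided exact permutation test over 252 arrangements, which cannot give less than 0.0079. Cd8a was at 0, 0, 0.0231, 0.0390 and 0.0406 FPKM in the ATRX-CT tumors and at 0.0317, 0.0488, 0.0616, 0.0675 and 0.0679 in the ATRX-KD tumors, about 5 fragments at most (exact permutation p = 0.0238, 1 of 8 such tests). By the same exact test Cd5 gave p = 0.0635 and the other 6 gave 0.444 to 1.0. Whether the effect of the knock-down differed between hosts was tested as an interaction. With limma 0 of 10 members passed this test, as 0 of 14803 genes did, and 0 were at an unadjusted p under 0.05, where 10.3% of all genes were. The differences of the effect ran from -0.18 for Cd8a to 0.32 for Cd3d (adjusted p = 0.628 to 0.999). As 8 members lie under the filter in NSG tumors, their values here largely restate the difference between Balb/c groups.

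By mean FPKM the order in Balb/c ATRX-CT tumors was Cd3g (10.8), Lck (5.43), Cd3e (4.63), Cd4 (4.44), Cd8a (4.32), Cd8b1 (3.63), Cd3d (2.85), Zap70 (2.64), Cd247 (2.00) and Cd5 (0.937). Only Cd3g and Lck, the first pair of neighbours, had ranges that did not overlap. In ATRX-KD tumors the order was Cd3g, Lck, Cd3e, Cd4, Cd8a, Cd3d, Cd8b1, Zap70, Cd247 and Cd5, with Cd3d and Cd8b1 exchanged, and only Cd247 (2.55) and Cd5 (1.13) did not overlap. The members also differed in spread. The coefficient of variation in the ATRX-KD group was 9.15% for Lck and 11.2% for Zap70, and 58.6% for Cd8a, 58.3% for Cd8b1 and 52.3% for Cd5. In the ATRX-CT group it was lowest for Zap70 (19.2%) and Lck (22.3%) and highest for Cd5 (54.0%) and Cd8b1 (49.1%).

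The T cell genes were high or low together only in part from tumor to tumor. Among ATRX-CT tumors that of mouse 43 had the highest level of 9 of the 10 members, and Cd3d alone was higher in mouse 44. The lowest levels were shared between mouse 41 (5 members) and mouse 45 (4 members). Among ATRX-KD tumors that of mouse 58 was lowest for 6 members, mouse 60 was highest for 5 and mouse 56 for 3. Summed over the 10 genes, FPKM ran from 32.1 to 56.4 in ATRX-CT and from 30.3 to 54.7 in ATRX-KD tumors.

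**Figure D3:**
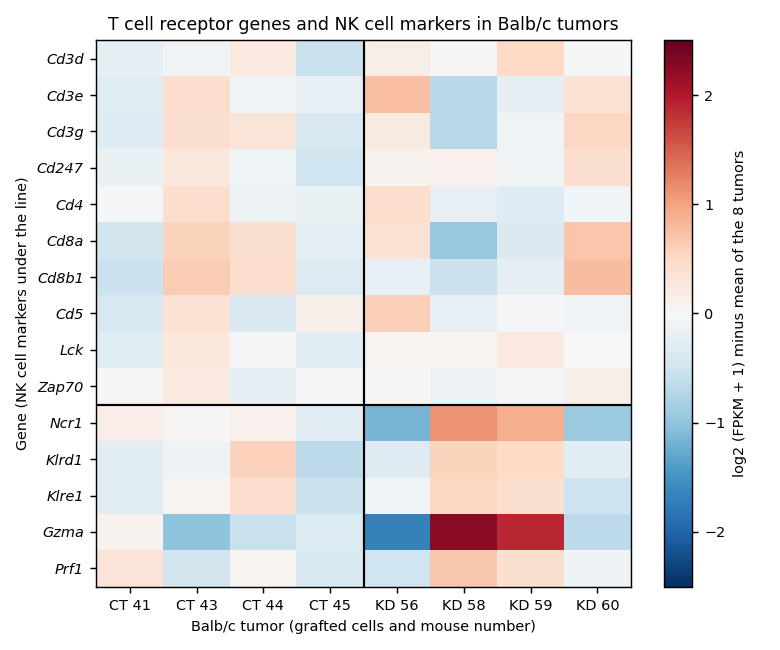
The 10 T cell genes and 5 NK cell genes in the 8 Balb/c tumors. Color is log2 (FPKM + 1) minus the gene's mean over the 8 tumors, from blue (lower) to red (higher), columns are tumors and the vertical line separates ATRX-CT from ATRX-KD. The ATRX-KD tumors of mice 58 and 59 are red in the NK rows, where those of mice 56 and 60 are mostly blue. The 5 NK genes were picked from the list of 10, and Klrk1, not shown, did not split these tumors this way.

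In 1 of the 5 ratios between members that were read, Cd3d to Cd3e, the ATRX-KD tumors fell into pairs far apart. These pairs were seen only after the values were known. The Cd3d to Cd3e ratio was 1.29 and 1.30 in the tumors of mice 58 and 59, and 0.429 and 0.496 in those of mice 56 and 60. In ATRX-CT tumors it was 0.440 to 0.945. The other 4 ratios showed no gap as wide. Cd8a to Cd4 and Cd3g to Cd3e overlapped between the pairs. Cd247 to Cd3e was 0.967 and 0.541 in mice 58 and 59 and 0.286 and 0.513 in mice 56 and 60, against 0.321 to 0.522 in ATRX-CT tumors. Cd8b1 to Cd8a was 1.27 and 0.941 in mice 58 and 59 and 0.505 and 0.911 in mice 56 and 60. Both were thus higher in mice 58 and 59, by a narrow gap. Ncr1 was at 14.1 and 12.0 FPKM in mice 58 and 59 and at 2.09 and 2.66 in mice 56 and 60, against 4.71 to 6.79 in ATRX-CT tumors. Gzma, a granzyme of cytotoxic lymphocytes, was at 187 and 144 FPKM in the former pair and at 11.2 and 24.0 in the latter. The whole NK list, of which 9 of 10 genes were tested between Balb/c groups and 0 called by limma (0 at an unadjusted p under 0.05), summed to 262 and 209 FPKM in mice 58 and 59 and to 44.2 and 62.8 in mice 56 and 60. In mice 58 and 59 most of this sum was Gzma. Klrk1, of the same list, did not split this way, at 5.55 and 5.37 FPKM in mice 58 and 59 and 5.56 and 6.53 in mice 56 and 60. The share of long transcripts also separated these tumors: log2 levels changed by -0.099 and -0.12 per doubling of transcript length in mice 58 and 59, and by 0.21 and 0.12 in mice 56 and 60, relative to the mean of the 18 tumors. ATRX-CT tumors differed in this too, with 0, 0.14, -0.096 and 0.19 in mice 41, 43, 44 and 45. Their ratios of Cd3d to Cd3e were 0.714, 0.440, 0.945 and 0.471, in the same order. The annotated transcripts of these genes are close in length, 1330 bases for Cd3d and 1436 bases for Cd3e. The part of NK cells or of transcript length in these ratios was not tested, and no test was made between pairs of tumors that were seen in the data.

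The balance of the coreceptors had overlapping ranges in both groups. The ratio of Cd8a to Cd4 averaged 0.975 ± 0.339 (SD, n = 4; 0.615 to 1.42) in ATRX-CT and 0.963 ± 0.535 (SD, n = 4; 0.428 to 1.71) in ATRX-KD tumors. In NSG tumors, where 9 members did not exceed 0.299 FPKM, Cd4 was at 1.00 to 5.62 FPKM. The ratio of Cd8b1 to Cd8a, chains of 1 coreceptor, was 0.738 to 0.909 in ATRX-CT tumors and 0.505 to 1.27 in ATRX-KD tumors. Cd3g to Cd3e was 1.94 to 3.11 and 1.45 to 2.55. For none of the 5 ratios were the groups apart, and none was tested.

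**Figure D4:**
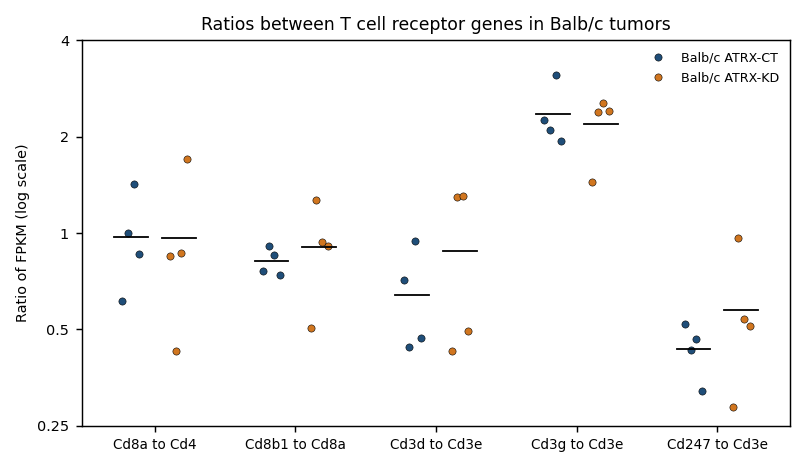
Ratios of FPKM between T cell receptor genes in the 8 Balb/c tumors, on a log axis. Each point is a tumor, blue for ATRX-CT and orange for ATRX-KD, and the line is the group mean. The groups overlap in all 5 ratios, and the ATRX-KD points of Cd3d to Cd3e form an upper pair (1.29 and 1.30) and a lower pair (0.429 and 0.496).

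Other genes of the pathway were read as 4 lists with 63 genes, of which 62 were tested between hosts. Among ATRX-CT tumors 19 of the 62 were called higher in Balb/c hosts and 0 lower, and among ATRX-KD tumors 22 were called higher and 0 lower, where 0.883% and 1.12% of all genes were called higher. Only 44 of the 63 passed the filter within NSG tumors, so others passed through the Balb/c tumors and these counts are a description. Of 28 signaling partners of the receptor, 8 were higher among ATRX-CT tumors, with a median of 0.39. Among them were the adaptors Sh2d1a (1.78, SE 0.17) and Skap1 (1.35, SE 0.13), and Lat (1.31, SE 0.15), the scaffold that Zap70 phosphorylates. Among ATRX-KD tumors 9 were higher, led by Sh2d1a (1.92), Sh2d2a (1.53), Txk (1.49) and Skap1 (1.44), with a median of 0.42. Many partners on this list are shared with other leukocytes, and 20 and 19 of them were not called.

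Costimulatory and adhesion receptors moved more as a group, with 8 and 9 of 11 tested called higher and medians of 1.09 and 1.45. Among them were Pdcd1, the inhibitory receptor PD-1 (2.26, SE 0.20, and 2.37, SE 0.25), Itgal, the alpha chain of the integrin LFA-1 (2.21 and 2.30), Cd2 (2.02 and 2.00) and Ctla4 (1.53 and 1.84). Of 13 transcription factors of the T lineage, 1 was called in each comparison, Eomes (1.40 in both), which also serves NK cells and stands on the NK list. Of 10 homing and cytokine receptor genes, 2 and 3 were called. Il2rb, a chain of the receptors for interleukins 2 and 15 shared by T and NK cells, differed by 4.09 (SE 0.17) and 4.15 (SE 0.11) and Cxcr6 by 2.67 and 2.58.

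Between ATRX-KD and ATRX-CT tumors none of these lists held a called gene. In Balb/c mice 0 of 62 were called by limma and 3 were at an unadjusted p under 0.05, where 0.00680% and 4.14% of all genes were. Among the 3 were Dgkz, which limits diacylglycerol signaling (-0.28, SE 0.11), and Runx3, a factor of cytotoxic T cells (-0.43, SE 0.18). Both had an adjusted p = 0.999. Sh2d2a (0.28), Ctla4 (0.32), Cd27 (0.23), Tbx21 (0.090) and S1pr1 (0.30), whose p was among the smallest in their lists, did not reach an unadjusted p under 0.05 and had the same adjusted p. In NSG mice 0 of the 44 tested were called and 12 were at an unadjusted p under 0.05, where 26.3% of all genes were. Slamf6 (-0.64, SE 0.13, adjusted p = 0.0207) and the adaptor Lcp2 (-0.58, SE 0.13, adjusted p = 0.0298) passed the p threshold at less than a fold change of 2. The share of all genes past this threshold at any fold is not given here, so they are not read as a result about the lists. Ptpn7 (-0.61), Icos (-0.17), Ets1 (0.44), Ikzf1 (-0.46) and Il7r (-0.27) did not pass it (adjusted p = 0.0801 to 0.229). All 10 macrophage genes were at an unadjusted p under 0.05 in this comparison, 9 of them lower in ATRX-KD tumors, with a median of -0.55 and sums of 2874 to 3910 FPKM in ATRX-CT and 1832 to 3250 in ATRX-KD tumors. All 8 endothelial genes were at an unadjusted p under 0.05 and higher in ATRX-KD tumors, with a median of 0.75 and sums of 18.1 to 52.5 FPKM in ATRX-CT and 44.0 to 59.8 in ATRX-KD tumors. The 4 Y-linked genes were at an unadjusted p under 0.05 in limma and lower in ATRX-KD tumors, with a median of -0.60. They summed to 24.2 to 34.3 FPKM in ATRX-CT and 13.1 to 21.2 in ATRX-KD tumors. Of 4 tested NK genes 1, Klra9 (-1.04), was called lower, where 0.464% of all genes were called in either direction. The part of these in the Slamf6 and Lcp2 differences was not tested.

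The genes whose profile over the 18 tumors lay closest to the mean of the members were chosen by the root mean square difference of centred log2 (FPKM + 1), among 12071 genes outside the lists. The closest was Tnfrsf18, the receptor GITR of regulatory and activated T cells, with a difference of 0.14 where the members' mean itself spread by 0.99. It averaged 4.54 FPKM in Balb/c and 0.385 in NSG tumors. Klrc1, a receptor of NK and cytotoxic T cells, followed at 0.23, then Ctse, Sept1, Tbc1d10c, Dnah17 and C6, and Fasl, the death ligand of cytotoxic lymphocytes, at 0.33. This likeness rests mainly on the host difference. Over the 8 Balb/c tumors alone, where the members' mean spread by 0.25, the closest genes were Acp5 (0.075), Met (0.11), Lrrfip1, Zfp644, Mfsd7b, Gja1, Sdccag8 and 2810403A07Rik (0.14). These 8 were expressed at similar mean levels in NSG tumors, for example 18.4 FPKM in Balb/c and 22.6 in NSG tumors for Acp5 and 25.4 and 22.9 for Met.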

How the data were processed

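RNA of 18 K7M2 tumors was ribo-depleted and sequenced in pairs of 75-base reads from strand-marked libraries. The authors aligned the reads to mm10 with STAR 2.6.0c, discarded low-quality reads and duplicates from PCR, and used Cufflinks 2.2.1 with RefSeq genes. Whether Cufflinks used the strand is not given in the sources used here. The authors deposited log2 (FPKM + 1) per gene and tumor. The base of the log was checked on the values. With base 2, FPKM times transcript length summed to 1.02 to 1.03 times the expected total, and with base e to 7.64 to 9.71 times. The matrix held 20878 genes and 92 ERCC spike-ins, which were left out, and 0 columns without a sample. The authors ran DESeq for their own comparison, which was not used.

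Tumors were grouped by the labels' host and shRNA. Genes averaging 0.1 FPKM or more over the fitted tumors were tested on log2 (FPKM + 1) with limma 3.58.1 in R 4.3.3 (lmFit, eBayes with trend) and Benjamini-Hochberg adjustment over all of them. Genes were called at a fold change of 2 or more and an adjusted p under 0.05, or any size for the interaction. Fold changes on this scale are smaller than those of FPKM for low genes. Members under the filter were compared by exact permutation tests. Depth was inferred from the spacing of low FPKM values, with a fragment length of 160 bases. Whole fragments (to within 0.1) came out for only 35.2% to 39.6% of them, with 20% due to chance alone, so no count test was run. Floors cover counting error only. The steps were tested on simulated data.

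The members and all lists were chosen with earlier results of these data known. Genes named are the 10 members, Atrx, per comparison up to 4 called genes of each T cell list with the largest differences (or, where none was called, up to 2 with the smallest p), defining markers of other cell types, and the 8 genes closest to the members' mean over all tumors and over Balb/c tumors. Clec10a as a single value, Pou2f1, and the genes past an unadjusted p were chosen after their values were seen. Some genes that this rule names are not reported here. Alternatives were a pseudocount of 0.1, median-ratio scaling, a minimum of 1 FPKM, no filter, no fold threshold, library weights, 1 fit of all groups, removal of the trend with transcript length, and leaving out each tumor. Tables and figures were made in Python 3.11.15.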

Additional observations from a re-analysis of the deposited data

Results flagged for a closer look

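Within groups of 4 or 5 tumors, 50 sets of values were searched for a tumor far from the others by Dixon's test, and 6 had one, where chance gives about 2.5. In 3 of the 6 the other values were exactly 0, where any value above 0 stands apart, so that the number chance gives does not apply to such sets. In NSG mice 5 of these were low values that stood above a group near 0. Cd3g was at 0.068 on the log2 (FPKM + 1) scale in the ATRX-KD tumor of mouse 29, with 0 in the other 4. Cd8b1 was at 0.050 in the ATRX-CT tumor of mouse 3 and at 0.091 in the ATRX-KD tumor of mouse 30, again with 0 in the others of each group. Zap70 was at 0.22 in mouse 1 (ATRX-CT), with 0 to 0.043 in the other 4, and at 0.13 in mouse 30 (ATRX-KD), with 0 to 0.033 in the other 4. These 5 values were worth about 1 to 5 fragments each. In Balb/c mice the ratio of Cd3g to Cd3e was 1.45 in mouse 56 (ATRX-KD) and 2.38 to 2.55 in the other 3 of its group.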

How the results depend on the processing

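Under every alternative run, 0 members were called between ATRX-KD and ATRX-CT tumors in either host and 0 in the interaction. Between hosts, 7 to 9 were called among ATRX-CT tumors (9 with a pseudocount of 0.1, 7 of 8 tested with a minimum of 1 FPKM) and, with all tumors, 8 or 9 among ATRX-KD tumors. With 1 tumor left out the counts were 8 and 8 to 9. Without the tumors of mice 45 and 60 they were 8 and 9, and when mice 26, 27 and 29 were left out as well the count among ATRX-KD tumors was 6. Both alternatives were chosen after seeing the data. Cd5 was the member that crossed the fold threshold, at 2.80 among ATRX-CT tumors with a pseudocount of 0.1 and at 0.87 among ATRX-KD tumors with library weights. Of 833 differences of members under alternatives, 60 changed sign, 43 of them with 1 tumor left out. None of the 60 was called, and the cause was not tested.

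Between Balb/c groups, Cd3e was -0.24 with library weights and -0.070 without mice 45 and 60, and Zap70 was 0.0021 with a pseudocount of 0.1 and 0.0060 with median-ratio scaling. Between NSG groups Cd4 was 0.0052 with a pseudocount of 0.1 and Lck was -0.0077 with library weights. Library weights also put Cd4 at -0.0040 between hosts among ATRX-CT tumors. In the interaction, library weights gave -0.17 for Cd3e, 0.35 for Cd4 and -0.067 for Zap70. Without mice 45 and 60 it was -0.025 for Cd3e and -0.046 for Zap70, and without mice 26, 27 and 29 as well it was -0.025 for Cd3e, 0.12 for Cd4 and -0.089 for Zap70. Cd4 was 0.018 with median-ratio scaling and 0.0068 with the length trend removed. With 1 tumor left out, the differences between Balb/c groups ranged from -0.15 to 0.33 for Cd3e, -0.19 to 0.21 for Cd3g, -0.23 to 0.073 for Cd4, -0.39 to 0.16 for Cd8a, -0.37 to 0.10 for Cd8b1, -0.039 to 0.28 for Cd5 and -0.076 to 0.083 for Zap70. Those between NSG groups ranged from -0.31 to 0.12 for Cd4 and -0.00051 to 0.034 for Lck. The interaction ranged from -0.10 to 0.38 for Cd3e, -0.20 to 0.20 for Cd3g, -0.19 to 0.25 for Cd4, -0.43 to 0.11 for Cd8a, -0.38 to 0.097 for Cd8b1 and -0.055 to 0.10 for Zap70. The log2 ratios, ATRX-KD minus ATRX-CT, ranged from -0.45 to 0.21 for Cd8a to Cd4, -0.10 to 0.34 for Cd8b1 to Cd8a and -0.19 to 0.083 for Cd3g to Cd3e.

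No paired analysis was possible because the groups share no mouse number. With 4 or 5 tumors a group the intervals are wide, and in NSG tumors 8 members lie at a few fragments, where a difference was not detectable at this depth.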
